A study of Homo sapiens with 8 samples.

Results

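The places that HP1a held in wild-type cells were examined for the related protein HP1b after HP1a had been knocked down. The cells were MCF10A, an established human cell line from non-cancerous breast epithelium, and the data were ChIP-seq lists of broad peaks, regions where DNA bound by the precipitated protein was enriched. Of 8 libraries in 4 groups, 6 were used: HP1a ChIP in wild type (WT, no treatment), HP1b ChIP in HP1A knock-down, and, as the background, HP1b ChIP in wild type. Each group had replicates 1 and 2, which the labels do not state to be separate cultures, so every spread and p-value measures only the difference between these libraries, which may be technical. The agent of the knock-down and the level of HP1a that remained were not given in the sources used here, and a peak list can check neither the knock-down nor the cell type.

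An HP1a site was defined as a merged region on chromosomes 1 to 22 in which peaks of both wild-type HP1a libraries overlapped by at least 1 base. This gave 23089 sites from 127402 peaks of replicate 1 and 109345 of replicate 2, while the 8 lists held 1157865 peaks in all, over all chromosomes. The sites were 161 to 35679 bases wide with a median of 875 bases, and covered 23.95 Mb, or 0.874% of the 2740 Mb of autosomal bins that held a peak in any library. The rule was strict for these lists: only 18.4% of the peaks of replicate 1 and 21.5% of those of replicate 2 lay on a site. The lists of HP1b in the knockdown held 149432 and 213115 autosomal peaks, which covered 4.06% and 5.70% of the span. Those of HP1b in wild type held 225115 and 226766 and covered 5.43% and 5.42%.

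HP1a, the product of CBX5, and HP1b, the product of CBX1, are closely related proteins of compact, silent chromatin. Both bind a methylated lysine of histone H3 through a chromodomain and form dimers through a chromoshadow domain, by which they also recruit other silencing proteins. They are best known from pericentromeric repeats and, along chromosome arms, from silent genes and clusters of zinc finger genes. Because the same methylated histone can be read by either protein, one may be found where the other is.

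Few HP1a sites lay on the promoters of genes, and those that did fell on both sides of the question asked here. Promoter windows of 300 bases, from 250 bases before to 50 bases after the start of a gene, were given by RefSeq (GRCh38.p14) for 15101 of 19126 protein-coding autosomal genes (79.0%). Of these windows 61 touched an HP1a site, and HP1b was listed on 8 of them in both knockdown libraries, on 13 in 1 and on 40 in neither. Single libraries listed HP1b on 11 and 18 of the 61 in the knockdown and on 17 and 29 in wild type. Of all 15101 windows, 1.58% and 3.09% had HP1b in the knockdown and 3.13% and 3.98% in wild type. Off HP1a sites, 86 of 15040 windows had it in both knockdown libraries. Windows are shown for 2 genes with HP1b in both knockdown libraries and 2 with it in neither, each lying wholly inside an HP1a site. Capitals mark the dinucleotide CG, the site of DNA methylation in mammals, which reads the same on both strands and was present in 98.1% of all 15101 windows.
The first pair held HP1b in both knockdown libraries. SMIM35 (chr11:118086914-118087213, minus strand) encodes a small membrane protein. Its window held a peak of HP1a replicate 1 and none of HP1a replicate 2, because a site merges all overlapping peaks. The other windows shown held peaks of both HP1a libraries. ZNF43 (chr19:21836133-21836432, minus strand) encodes a zinc finger protein.
SMIM35: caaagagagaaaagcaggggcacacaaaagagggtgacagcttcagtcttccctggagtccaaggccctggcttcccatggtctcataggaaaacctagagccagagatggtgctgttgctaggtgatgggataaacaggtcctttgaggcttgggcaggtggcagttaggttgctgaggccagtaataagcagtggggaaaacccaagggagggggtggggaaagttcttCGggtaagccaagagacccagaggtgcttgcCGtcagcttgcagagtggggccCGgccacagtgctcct
ZNF43: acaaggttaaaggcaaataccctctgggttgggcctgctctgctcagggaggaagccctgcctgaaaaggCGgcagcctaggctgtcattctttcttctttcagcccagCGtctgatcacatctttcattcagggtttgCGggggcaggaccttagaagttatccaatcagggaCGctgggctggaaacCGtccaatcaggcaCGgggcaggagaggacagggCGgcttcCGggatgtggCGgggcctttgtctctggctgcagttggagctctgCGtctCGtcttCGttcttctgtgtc
The other pair held no HP1b peak in the knockdown. PADI4 (chr1:17307947-17308246, plus strand) encodes an enzyme that converts arginine to citrulline in histones. CRNN (chr1:152414214-152414513, minus strand) encodes cornulin, a protein of the cornified epithelium.
PADI4: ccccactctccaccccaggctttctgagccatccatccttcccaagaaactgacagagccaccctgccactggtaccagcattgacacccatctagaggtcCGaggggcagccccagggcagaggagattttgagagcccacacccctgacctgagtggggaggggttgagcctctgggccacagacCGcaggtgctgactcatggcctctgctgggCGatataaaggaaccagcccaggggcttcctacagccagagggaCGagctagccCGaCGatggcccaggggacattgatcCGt
CRNN: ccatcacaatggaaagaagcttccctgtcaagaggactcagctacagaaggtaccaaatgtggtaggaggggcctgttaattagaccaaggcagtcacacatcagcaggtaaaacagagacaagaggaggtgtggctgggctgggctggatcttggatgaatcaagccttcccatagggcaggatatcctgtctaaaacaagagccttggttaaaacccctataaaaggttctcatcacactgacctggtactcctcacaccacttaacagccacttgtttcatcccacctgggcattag
The window of SMIM35 held 3 CG, that of ZNF43 held 12, that of PADI4 held 7 and that of CRNN held 0. HP1b covered all 300 bases at SMIM35 in both knockdown libraries and in wild-type replicate 2, and 0 bases in wild-type replicate 1. At ZNF43 it covered 300 and 263 bases in the knockdown, and 0 and 300 in wild type. The 2 wild-type libraries therefore disagreed at both promoters where both knockdown libraries had a peak. At PADI4 no HP1b library had a peak, and at CRNN HP1b covered 300 and 65 bases in wild type against 0 and 0 in the knockdown. Because fewer than 80% of the genes had a window, base composition was not compared between the kinds of promoter.

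HP1b was listed at a large share of the HP1a sites when HP1a was knocked down, and at a smaller share than in wild type. A site was called met where a peak of the library overlapped it by at least 1 base. In the knockdown, HP1b met 41.8% of the sites in replicate 1 and 52.3% in replicate 2 (47.0% ± 7.40, SD, n = 2). In wild type it met 57.9% and 61.0% (59.5% ± 2.13, SD, n = 2). Both knockdown libraries lay below both wild-type libraries, with a two-sided exact permutation p of 0.333, which is the smallest that 2 against 2 libraries can give. Counted in bases, HP1b peaks covered 29.5% and 36.7% of the HP1a site bases in the knockdown (33.1% ± 5.03, SD, n = 2), against 39.5% and 42.02% in wild type (40.8% ± 1.78, SD, n = 2), again without overlap (exact p = 0.333).

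**Figure D1:**
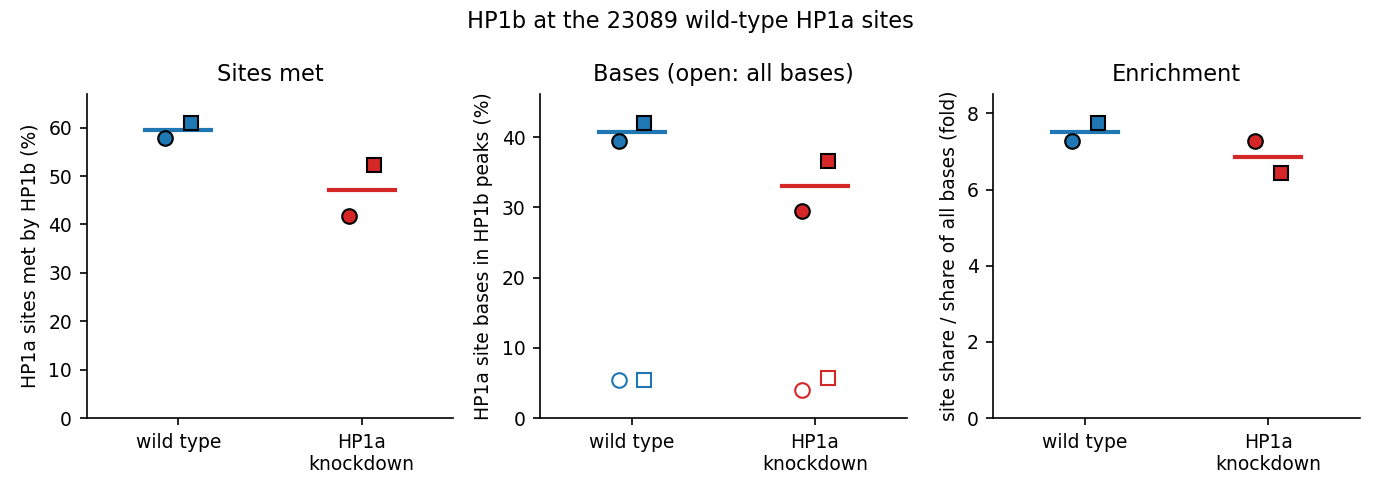
HP1b at the 23089 HP1a sites, 1 filled point per library (circle, replicate 1; square, replicate 2) with the mean as a line, for wild type (blue) and HP1a knockdown (red). The panels show the percent of sites met, the percent of site bases inside HP1b peaks with the library's share of all autosomal bases as open points, and the ratio of these 2 shares; the groups separate in the first and second panels and overlap in the third.

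Measured against each library's own total coverage in the lists as deposited, HP1b at HP1a sites was lower in the knockdown on average, with libraries of the 2 groups overlapping. The share of site bases covered was 7.28 and 6.43 times the share of all autosomal bases covered in the knockdown (6.85 ± 0.596, SD, n = 2), and 7.27 and 7.75 times in wild type (7.51 ± 0.334, SD, n = 2; exact p = 0.667). In the other direction, 6.36% and 5.62% of the HP1b peak bases of the knockdown lay on HP1a sites, and 6.36% and 6.77% of those in wild type (exact p = 0.667). Knockdown replicate 1, the shortest HP1b list, was level with wild-type replicate 1 on this scale and was the lowest library in sites met. When each library was cut to its strongest 109345 peaks, the number in the shortest list, HP1b met 38.2% and 38.3% of the remaining 19962 sites in the knockdown and 41.7% and 42.1% in wild type. The gap in sites met was then smaller, and the libraries of a group lay close together. The fold over all bases was 8.90 and 8.93 in the knockdown and 11.2 and 11.5 in wild type on these lists, now without overlap (exact p = 0.333).

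The threshold on peaks turned the difference in sites met around. With peaks of −log10 p of at least 4 only, 3291 sites were left, and HP1b met 32.8% and 42.2% of them in the knockdown against 27.7% and 39.3% in wild type. With −log10 q of at least 2 only, 454 sites were left, and the shares were 34.4% and 53.5% against 32.2% and 45.6%. In both cases the libraries of the 2 groups overlapped (exact p = 0.667). The fold over all bases did not turn: it was 31.4 and 22.2 in the knockdown against 46.2 and 41.4 in wild type at the −log10 p threshold, and 94.9 and 41.0 against 256 and 149 at the −log10 q threshold, without overlap in either (exact p = 0.333). The lower share of sites met in the knockdown thus holds for the lists as deposited and for lists of equal length, and not for the strongest peaks.

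Site by site, the 2 wild-type libraries give the yardstick for how often HP1b is listed again at a site. Of the sites met in wild-type replicate 1, 73.8% were also met in wild-type replicate 2, 55.4% in knockdown replicate 1 and 65.2% in knockdown replicate 2. Of those met in wild-type replicate 2, 70.1% were met in wild-type replicate 1, and 54.1% and 64.4% in the knockdown libraries. The sites met in knockdown replicate 1 were met again in 79.6% of cases by knockdown replicate 2, and in 76.8% and 78.9% by the wild-type libraries. Those met in knockdown replicate 2 were met again in 63.7% by knockdown replicate 1, and in 72.3% and 75.2% by the wild-type libraries. The wild-type libraries thus shared more sites with each other than with either knockdown library, which met fewer sites in all.

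Sorted by the number of libraries with a peak, 7683 sites (33.3%) had HP1b in both knockdown libraries, 6353 (27.5%) in 1 and 9053 (39.2%) in neither. Of all 500-base tiles of the autosomes, 1.52% had over 250 bases of HP1b in both knockdown libraries and 1.32% in both wild-type libraries, and with any overlap of 1 base 3.11% and 3.09%. HP1b was in all 4 HP1b libraries at 5467 sites (23.7%) and in none at 3622. Of the 9869 sites with HP1b in both wild-type libraries, 55.4% had it in both knockdown libraries and 18.8% had it in neither. Of the 5505 sites without HP1b in wild type, 8.97% had it in both knockdown libraries and 65.8% in neither. Read from the knockdown side, 71.2% of its 7683 sites had HP1b in both wild-type libraries and 6.43% in none. Sites with HP1b in the knockdown thus mostly had it in wild type.

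**Figure D2:**
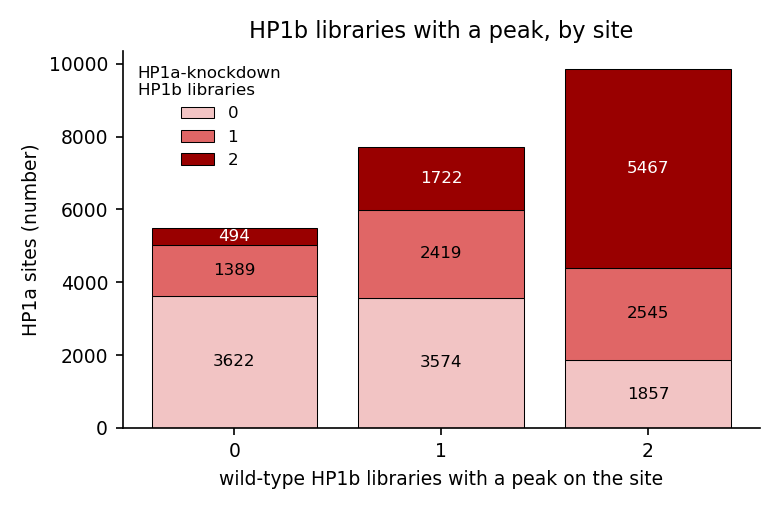
Number of HP1a sites by how many of the 2 wild-type HP1b libraries had a peak on the site (horizontal axis) and how many of the 2 HP1a-knockdown HP1b libraries had one (shades, darker for more). The dark part is the largest in the right bar, 5467 sites with HP1b in all 4 libraries, and the smallest in the left bar, 494 newly listed sites.

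HP1b was newly listed, in both knockdown libraries and neither of wild type, at 494 sites (2.14%), and no longer listed, in both wild-type libraries and neither of the knockdown, at 1857 (8.04%). Over all tiles, counted where over 250 bases were covered, 0.661% were newly listed and 0.563% no longer listed. With any overlap of 1 base these shares were 1.1% and 1.23%. Among the 47771 tiles on HP1a sites 2.75% were newly listed and 5.58% no longer listed, so that 2.03 tiles went for each that came, against 0.808 off the sites. Counted with any overlap of 1 base, 2.70 went for each that came on the sites and 1.07 off them. The direction of the balance off the sites thus depended on the definition. Relative to the HP1b that was there before, the sites lost less: 24.3% of the site tiles with HP1b in both wild-type libraries were no longer listed, against 45.8% of such tiles elsewhere. The turnover counts followed the libraries used, since a site had to agree in 4 lists. Taking 1 HP1b library away left 907 to 1470 newly listed and 2672 to 3798 no longer listed sites. The balance turned with stricter thresholds, at 147 newly and 84 no longer listed with −log10 p of at least 4, and 17 and 5 with −log10 q of at least 2.

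HP1b regions of wild type that lay on HP1a sites were met again in the knockdown more often than HP1b regions elsewhere. Of 76047 regions found in both wild-type HP1b libraries, 9949 lay on a site. Of these, knockdown replicate 1 met 66.2% and replicate 2 met 74.7%, while of the other 66098 regions they met 42.8% and 51.8%. Regions on sites were also wider, with a median of 1583 bases against 1034, so regions were compared within 5 equal groups of width. In the narrowest group the knockdown libraries met 45.0% and 56.1% on sites and 30.2% and 37.0% off sites, at median widths of 503 and 476 bases. In the widest group they met 80.1% and 87.4% on sites and 66.2% and 75.5% off sites, at 2660 and 2278 bases. The order was the same in both knockdown libraries and in all 5 width groups. These shares describe 2 libraries, and regions are not replicates, so no test was made.

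Seen from the centre of the sites, HP1b in the knockdown formed the same narrow rise as in wild type, at a lower height. At the site centre, HP1b peaks covered 27.7% and 34.8% of sites in the knockdown and 37.3% and 39.8% in wild type. At a distance of 10 kb they covered 8.20% and 10.8% in the knockdown, while wild type had 11.01% and 11.4%. The ratio of centre to edge was 3.38 and 3.23 in the knockdown and 3.38 and 3.50 in wild type, with knockdown replicate 1 just below wild-type replicate 1. The HP1a libraries, which chose the sites, had 70.4% and 69.2% at the centre, and are drawn as a description.

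**Figure D3:**
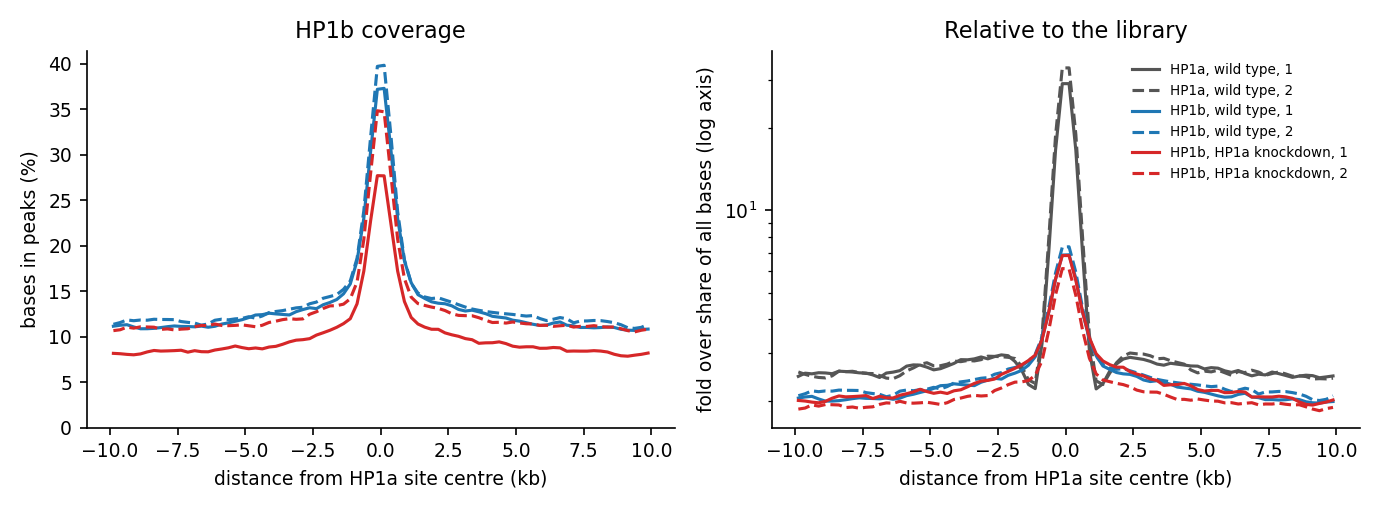
Coverage around the centres of the HP1a sites in steps of 250 bases, as the percent of sites inside a peak (left, HP1b only) and as the ratio to the library's share of all autosomal bases (right, log axis, with the HP1a libraries in grey). Solid lines are replicate 1 and dashed lines replicate 2; the HP1b libraries of both groups peak at the centre, the knockdown (red) at 27.7% and 34.8% and wild type (blue) at 37.3% and 39.8%.

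Where a site had no HP1b peak, the nearest one was farther away in the knockdown. The median distance from an unmet site to the next HP1b peak was 6108 and 3854.5 bases in the knockdown, and 2644 and 2560 bases in wild type. It was beyond 10 kb for 35.4% and 20.8% of the unmet sites in the knockdown, against 13.8% and 12.5% in wild type. The list of knockdown replicate 2 covered more bases than either wild-type list and held fewer peaks, 213115 against 225115 and 226766. How far the number of peaks accounts for the longer distance was not tested. Where HP1b was on a site, its peaks were wide: their median width was 880 and 858.5 bases on sites against 557 and 540 bases off sites in the knockdown, and 841.5 and 843 against 520 and 516 in wild type. Their deposited fold enrichment, the authors' own value for each peak, had medians of 2.82 and 2.82 on sites and 2.79 and 2.79 off sites in the knockdown. In wild type these medians were 3.02 and 3.12 on sites and 2.92 and 3.02 off sites.

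HP1b was listed more often where HP1a was stronger. The sites were ranked by the deposited HP1a fold in the weaker of the 2 HP1a libraries and divided into 10 equal groups. In the group of lowest HP1a fold, HP1b met 25.6% and 37.2% of the sites in the knockdown and 47.5% and 51.8% in wild type. In the group of highest fold it met 68.3% and 74.8% in the knockdown and 76.1% and 79.0% in wild type. The gap between knockdown and wild type was thus wide where HP1a was weak and narrow where it was strong, and was not tested on its own. Of the sites in the lowest group 68.9% lay on the distal long arms of chromosomes 1, 5 and 8, against 13.9% in the highest, so fold and place moved together. By width, the knockdown shares went from 30.7% and 37.7% in the narrowest group to 65.0% and 75.9% in the widest, and the wild-type shares from 39.6% and 43.4% to 86.0% and 87.7%.

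**Figure D4:**
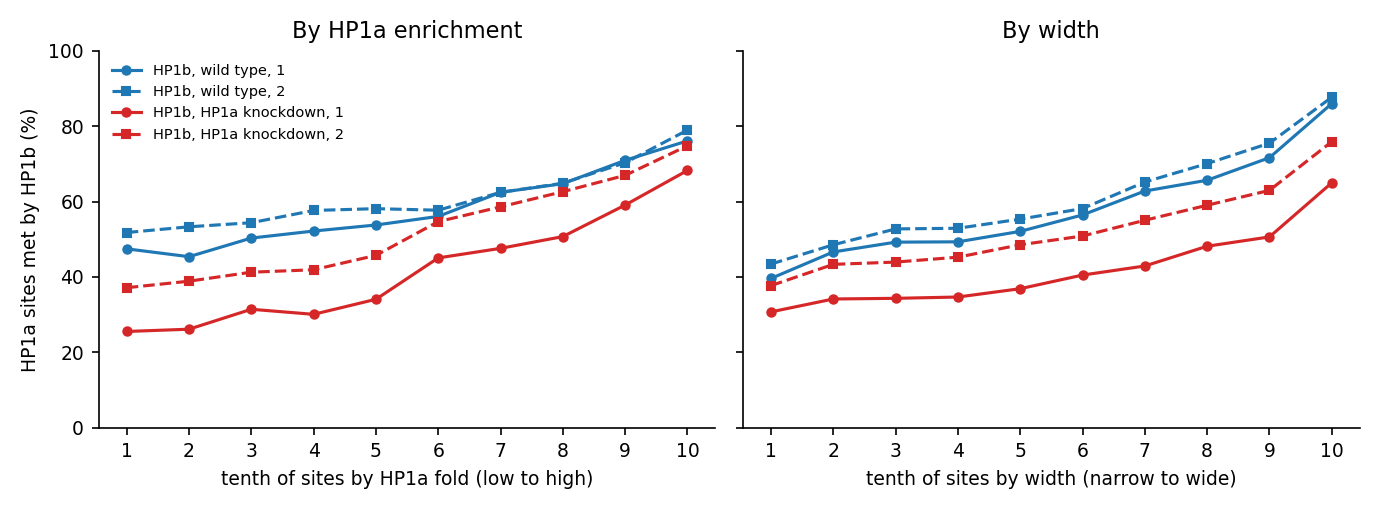
Percent of HP1a sites met by HP1b in 10 equal groups of sites, ordered by the deposited HP1a fold in the weaker HP1a library (left) and by site width (right), 1 line per HP1b library. In the left panel the knockdown lines (red) rise from 25.6% and 37.2% to 68.3% and 74.8%, nearer to the wild-type lines (blue) at the right end than at the left.

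HP1a peaks that only 1 HP1a library listed were met less often than peaks on sites. For HP1a replicate 1, HP1b of the knockdown met 19.2% and 28.2% of such peaks against 39.4% and 49.2% of the peaks on sites. For HP1a replicate 2 the values were 21.2% and 27.9% against 39.0% and 48.7%. In wild type, HP1b met 28.8% and 30.1% of the peaks of HP1a replicate 1 alone, against 53.9% and 57.0% on sites. On the peaks of a single HP1a library, knockdown replicate 2 thus came close to wild type.

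Individual sites show the range of outcomes. Among sites with HP1b in all 4 libraries, the highest HP1a fold in the weaker library was at chr6:53558585-53560061, 13.5 kb from GCLC, which encodes an enzyme of glutathione synthesis. HP1b covered 90.9% and 98.8% of it in wild type against 100% and 53.7% in the knockdown. A site inside XPR1, a phosphate exporter gene, at chr1:180734130-180734897, was covered at 100% and 100% in wild type and at 95.1% and 75.7% in the knockdown. The other 2 were near CST8 and CRYL1, where the knockdown libraries covered between 95.7% and 100%.

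Among sites with no HP1b in any library, the strongest was a narrow one of 165 bases, chr12:65624707-65624871, 157.8 kb from MSRB3, with an HP1a fold of 6.21 and 5.92. The others were near CBLB, inside MARCO, a scavenger receptor gene, and 598.3 kb from SPRY1. Their HP1a folds in the weaker library ranged from 4.03 to 4.23, so strong HP1a sites of wild type without HP1b in either condition existed. The newly listed site of highest HP1a fold, chr6:145289302-145290111, 93.2 kb from EPM2A, was covered only in part in the knockdown, at 15.8% and 20.6%. Next was chr10:91452611-91453493 inside HECTD2, a ubiquitin ligase gene, where HP1b covered 0% and 0% in wild type against 100% and 73.7% in the knockdown. Near PCDH18, at chr4:136237312-136237898, it went from 0% and 0% to 77.9% and 87.7%, and at chr22:10933737-10934016 to 82.5% and 98.2%. Among sites no longer listed, chr9:105223755-105223950, 20.7 kb from SLC44A1, was covered at 82.7% and 88.3% in wild type, and chr7:121726811-121727902, 145.3 kb from PTPRZ1, only in part, at 21.1% and 15.5%. The others were chr10:103657350-103657768 inside SH3PXD2A, the gene of an invadopodium scaffold protein, covered at 100% and 100% in wild type, and chr14:63815262-63815451 inside SYNE2, which encodes a nesprin of the nuclear envelope, at 94.7% and 43.2%. In the knockdown all 4 were at 0% and 0%. The agreement of the 2 knockdown libraries at these sites follows from how the classes were defined.

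The widest site, chr20:29412109-29447787, spanned 35679 bases in the pericentromeric region of chromosome 20, and HP1b covered 31.9% and 36.1% of it in wild type against 20.3% and 22.4% in the knockdown. The site of 13852 bases at chr19:27759712-27773563 was covered at 100% and 95.1% in wild type and at 71.3% and 75.3% in the knockdown. The site of 14522 bases at chr10:122580987-122595508 lies in DMBT1, which encodes a mucosal scavenger protein. There the wild-type HP1b libraries differed from each other, at 3.16% and 95.6%, and both knockdown libraries were at 0%.

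The lower share of sites met was seen along nearly the whole genome. On 21 of 22 autosomes both knockdown libraries lay below both wild-type libraries. The exception was chromosome 19, rich in zinc finger genes, where HP1b met 76.7% and 86.7% of the 862 sites in the knockdown and 84.5% and 84.6% in wild type. The same libraries recur on every autosome, so the autosomes are not separate tests. Relative to each library's coverage of the same chromosome, the order varied. On chromosome 4 the fold was 7.94 and 7.86 in the knockdown against 8.90 and 9.58 in wild type. On chromosome 22 it was 10.99 and 6.64 against 7.15 and 7.57, overlapping. Chromosome 19 held 8.08% of the sites with HP1b in both knockdown libraries and 0.828% of those with HP1b in neither. On the distal long arms of chromosomes 1, 5 and 8, stretches chosen after seeing the data, HP1a sites were dense, at 33.1 per Mb against 6.39 elsewhere, and these arms held 30.0% of all sites. There HP1b met 42.9% and 56.7% in the knockdown and 62.4% and 67.7% in wild type, and outside the arms 41.3% and 50.3% against 56.0% and 58.1%. The lower share of sites met was therefore present without these arms. The fold over all bases outside the arms was 7.66 and 6.56 in the knockdown and 7.60 and 7.98 in wild type, overlapping. Of the sites with HP1b in both knockdown libraries 33.9% lay in gene bodies, against 42.8% of those with HP1b in neither, while gene bodies made up 44.1% of the span.

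HP1b of the knockdown was next compared with HP1a of wild type directly, in 1 Mb bins. The measure was relative coverage, the bases in peaks of a bin per Mb of all peak bases of the library, on a log2 scale with a pseudocount. The antibody and the knockdown differ together in this comparison and cannot be told apart, so wild-type HP1b is given beside the values. By limma with Benjamini-Hochberg adjustment, 321 of 2737 bins (11.7%) had relatively more HP1b and 412 (15.1%) relatively less. At an unadjusted p under 0.05 these were 409 bins (14.9%) and 573 (20.9%). Without scaling to the library total, where the median of all bins moved from -0.07 to 0.69 on the log2 scale, the split was 1178 to 6. With lists of equal length, the number with less was 673. Leaving out HP1a replicate 1 gave 195 bins with less, leaving out HP1a replicate 2 gave 209 with more and 218 with less. The spread was taken as common to bins of like coverage, which makes the adjusted p-values of single bins very small, and they are best read as a ranking.

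The bins with relatively more HP1b were concentrated near chromosome ends and on chromosome 19. Of these 321 bins, 29.3% lay within 5 Mb of a chromosome end, against 7.12% of all bins fitted, and 36 were on chromosome 19, out of 57 fitted there. In these bins the median coverage was 1.75% and 1.503% for HP1a, 5.56% and 5.22% for wild-type HP1b, and 7.02% and 10.04% for knockdown HP1b. The bins with relatively less HP1b lay in the HP1a-rich places: 29.9% were on the 3 distal arms, against 7.64% of all bins. Chromosome 1 held 86 of them among 229 bins fitted, chromosome 5 held 38 among 178, chromosome 8 held 34 among 141 and chromosome 20 held 29 among 64. Over all autosomes it was 412 among 2737 (15.1%). Their median coverage was 3.52% and 3.03% for HP1a, 6.99% and 7.47% for wild-type HP1b, and 2.64% and 4.69% for knockdown HP1b. Their median amount of HP1a site was 11.8 kb, against 3.20 kb in the bins with more HP1b. Because the bins were called against HP1a itself, their richness in HP1a and in HP1a sites follows in part from the call.

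**Figure D5:**
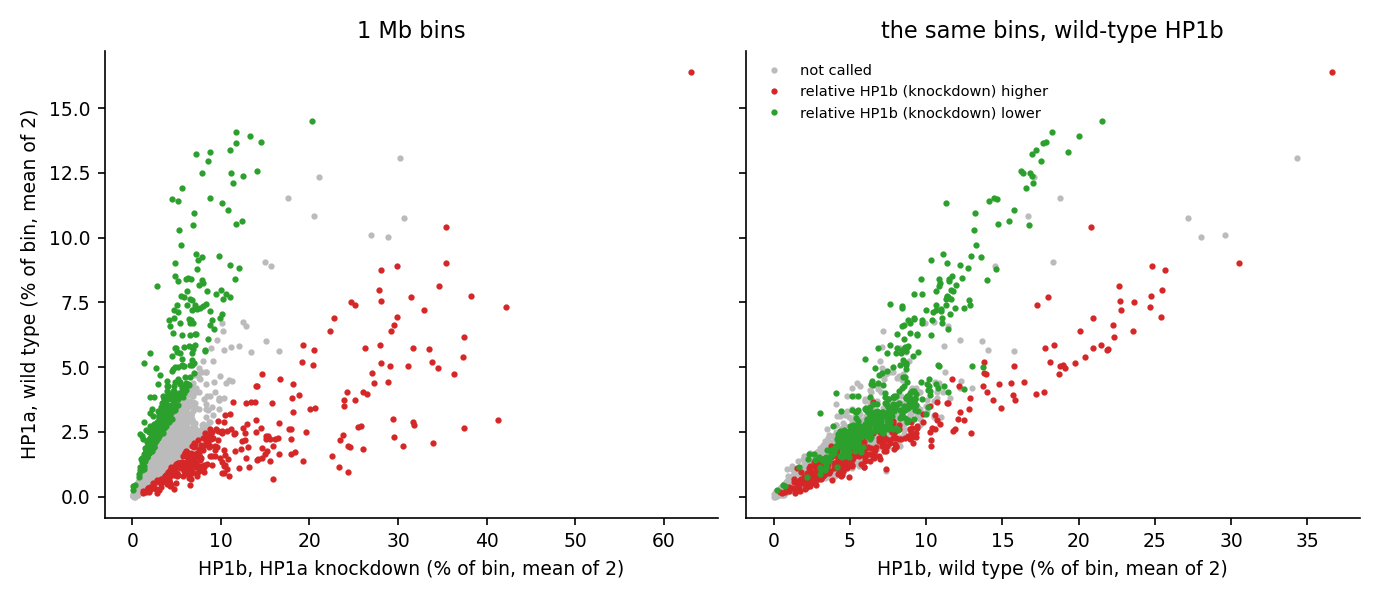
Percent of each 1 Mb bin covered by HP1a peaks in wild type (vertical axis) against HP1b in HP1a knockdown (left) and HP1b in wild type (right), each the mean of 2 libraries, for 2737 bins. Red marks the 321 bins with relatively more and green the 412 with relatively less HP1b in the knockdown than HP1a in wild type; the 2 colours lie apart in the left panel, as the call requires, and closer together in the right panel.

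The largest excess of HP1b was on chromosome 2 from 2 to 3 Mb, which holds MYT1L, a neuronal transcription factor gene. HP1a covered 1.24% and 0.674% of this bin, wild-type HP1b 3.78% and 2.80%, and knockdown HP1b 19.95% and 28.8% (log2 difference from HP1a 2.83, SE 0.18, limma adjusted p = 4.09e-49). It held only 0.795 kb of HP1a site. Next came the bin of JAM3 and NCAPD3 on chromosome 11 from 134 to 135 Mb, with 0 bases of HP1a site, where HP1a covered 1.17% and 1.123%, wild-type HP1b 5.56% and 6.29%, and knockdown HP1b 19.1% and 27.5%. The bin of OPCML and NTM, genes of neural cell adhesion molecules, on chromosome 11 from 132 to 133 Mb, went from 1.84% and 2.32% for HP1a to 36.8% and 31.2% for knockdown HP1b. In wild type, HP1b had covered 9.83% and 8.40% of it. The bin of TMEM132D on chromosome 12 from 129 to 130 Mb had 2.26% and 1.66% for HP1a, 8.92% and 5.91% for wild-type HP1b, and 28.5% and 32.5% for knockdown HP1b. The ranking by HP1b over HP1a favours bins with little HP1a at this end and rich in HP1a at the other.

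The largest deficit was on chromosome 1 from 156 to 157 Mb, the bin of ARHGEF11 and LMNA, where HP1a covered 6.41% and 3.93%, wild-type HP1b 5.87% and 11.5%, and knockdown HP1b 0.467% and 2.10% (log2 difference from HP1a -2.18, SE 0.21, limma adjusted p = 1.97e-22). On chromosome 1 from 205 to 206 Mb, which holds DSTYK and LEMD1 and 84.4 kb of HP1a site, HP1a covered 14.1% and 8.84%, wild-type HP1b 11.1% and 18.3%, and knockdown HP1b 2.76% and 6.13%. The bin of PPARGC1B, a coactivator of mitochondrial genes, on chromosome 5 from 149 to 150 Mb had 8.82% and 7.41% for HP1a, 9.22% and 12.5% for wild-type HP1b, and 2.004% and 3.62% for knockdown HP1b. In the bin of NAV1 and CACNA1S on chromosome 1 from 201 to 202 Mb, HP1a covered 14.5% and 9.34%, wild-type HP1b 14.3% and 18.8%, and knockdown HP1b 2.70% and 8.52%. These 4 bins lie on the distal arms named above. In all 4, wild-type HP1b covered more than knockdown HP1b in both libraries. The bins were picked for low HP1b in the same knockdown libraries, so this is no further support.

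Inside the HP1a sites alone, HP1b of the knockdown was compared with HP1b of wild type, which removes the difference of antibody. In 2137 bins with at least 2 kb of site bases, 1 bin passed limma's adjusted threshold upwards (0.0468%) and 2 downwards (0.0936%). At an unadjusted p under 0.05, 66 bins (3.09%) were higher and 252 (11.8%) lower. In the first, on chromosome 1 from 5 to 6 Mb with NPHP4 and KCNAB2, HP1b covered 9.78% and 11.1% of 7.996 kb of site bases in wild type against 61.7% and 71.1% in the knockdown (log2 difference 2.19, SE 0.36, limma adjusted p = 0.0359). The other 2 were neighbours on the long arm of chromosome 1. From 202 to 203 Mb, the bin of PPP1R12B and LGR6, coverage of 97.6 kb of site bases went from 31.3% and 31.4% to 5.57% and 12.1% (log2 difference -1.69, SE 0.25, limma adjusted p = 0.0272). From 201 to 202 Mb it went from 30.1% and 41.4% to 6.46% and 13.2% (log2 difference -1.68, SE 0.26, limma adjusted p = 0.0272). No group overlapped another in these 3 bins, which were picked for this difference. The calls moved with the setting: with the pseudocount multiplied by 4 there were 2 higher and 15 lower, and none of the 3 passed with lists of equal length (limma adjusted p = 0.185, 0.0817 and 0.0817), nor when either knockdown library or wild-type replicate 2 was left out. Without wild-type replicate 1, chromosome 1 from 202 to 203 Mb missed the threshold as well (limma adjusted p = 0.0521). With sites taken from 1 HP1a library, 55 bins were higher and 159 lower without HP1a replicate 1, and 100 and 191 without HP1a replicate 2.

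By gene, no gene passed limma's adjusted threshold in either comparison. Against HP1a, 794 of 10897 genes (7.29%) were higher and 1717 (15.8%) lower at an unadjusted p under 0.05, with 0 (0%) past the adjusted threshold in each direction. The smallest adjusted p was 0.0606. The absence of calls was not stable: with the pseudocount multiplied by 4, 29 genes were higher and 21 lower, and with any 1 of the 4 libraries left out 89 to 283 were higher and 224 to 636 lower. In the latter fits the lone library is assumed to vary like those of the other group. Within HP1a sites, 58 of 1880 genes (3.09%) were higher and 269 (14.3%) lower than in wild type at an unadjusted p under 0.05, with 0 (0%) adjusted in each direction and a smallest adjusted p of 0.181.

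The 6 genes with the largest moderated t toward HP1b are given here by their values and not as calls. In DPP6, which encodes an auxiliary subunit of potassium channels, HP1a covered 2.21% and 2.02% of the gene, wild-type HP1b 7.81% and 6.56%, and knockdown HP1b 21.6% and 27.2%. Of its 6.13 kb of HP1a site, HP1b covered 30.0% and 31.7% in wild type against 78.7% and 66.2% in the knockdown. DLGAP2, the gene of a postsynaptic scaffold protein, had 8.48% and 29.5% of its site bases covered in wild type against 57.6% and 67.5% in the knockdown. In SHANK2, which encodes another postsynaptic scaffold, the site bases went from 15.4% and 22.3% to 56.8% and 75.8% (log2 difference 1.77, SE 0.30, limma adjusted p = 0.181). TMEM132C went from 0% and 25.01% to 95.7% and 87.4%, and CSMD2 from 0% and 18.1% to 43.2% and 52.2%. For these 5 genes no wild-type library reached a knockdown library at the HP1a sites. They were picked for high HP1b in the same knockdown libraries, so that the groups lie apart is no further support. In TMEM132D, with 41.4% and 9.07% in wild type against 30.3% and 64.2% in the knockdown, the libraries overlapped.

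Other genes with high HP1b at their sites in the knockdown were NTRK3, a neurotrophin receptor gene, with 15.2% and 22.6% of site bases in wild type against 56.3% and 81.2% in the knockdown, and CHRM3, a muscarinic receptor gene, with 24.8% and 25.6% against 46.2% and 57.5%. ASIC2, an acid-sensing ion channel gene, had 32.0% and 33.0% against 53.8% and 62.5%. ZNF880, on chromosome 19, had 35.5% and 32.1% against 78.6% and 80.0%. OPCML had 21.2% and 34.0% against 57.1% and 76.2%. These 5 genes were chosen for this difference, so that the groups lie apart is no further support, and each had limma adjusted p = 0.181.

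In the opposite direction, ZNF586 on chromosome 19 had its 3.45 kb of HP1a site covered at 100% and 100% in wild type and at 0.493% and 0% in the knockdown. ETNK2, an ethanolamine kinase gene, went from 65.0% and 59.2% to 1.97% and 8.61%, and TRIM67 from 48.1% and 52.7% to 8.001% and 15.5%. PKP1, the gene of the desmosomal protein plakophilin, went from 59.9% and 83.7% to 14.6% and 18.7%. FHIT, a very long gene at a common fragile site, went from 48.4% and 46.4% to 12.1% and 17.7%, and IL19, a cytokine gene, from 31.8% and 38.5% to 8.50% and 11.8%. These 6 were chosen for this difference too, and each had a limma adjusted p of 0.181. Of these 6 genes 4 lie on the distal long arm of chromosome 1, and FHIT and ZNF586 lie elsewhere.

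Against HP1a itself, EXT1, which encodes an enzyme of heparan sulfate synthesis, had 6.20% and 5.44% of the gene covered by HP1a, 5.84% and 8.27% by wild-type HP1b and 1.61% and 2.12% by knockdown HP1b. In DMBT1 HP1a covered 21.1% and 20.7%, wild-type HP1b 10.9% and 29.6%, and knockdown HP1b 5.89% and 7.34%. In ARHGAP26 HP1a covered 7.86% and 6.85%, wild-type HP1b 8.40% and 10.02%, and knockdown HP1b 2.74% and 4.75%. CAMK1G, a calcium-dependent kinase gene, had 21.5% and 30.9% for HP1a, 21.6% and 27.4% for wild-type HP1b and 0% and 0.965% for knockdown HP1b, and its 7.84 kb of site held no HP1b in the knockdown against 27.2% and 38.6% in wild type. CNIH3 and CAPN8 were covered at 20.8% and 16.0%, and at 16.5% and 12.1%, by HP1a. Wild-type HP1b covered 22.6% and 24.7% of CNIH3 and 11.7% and 16.7% of CAPN8, and knockdown HP1b 9.66% and 14.3% of CNIH3 and 4.03% and 7.06% of CAPN8. The 3 HP1 genes CBX1, CBX3 and CBX5 held 0 bases of HP1a site.

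Of the 19126 protein-coding autosomal genes with 1 kb on each side, 3695 (19.3%) held HP1a site bases. HP1b was listed on these bases in both knockdown libraries for 1493 of the genes (40.4%) and in neither for 1442 (39.0%). The lists below are read against these shares, and their members often share sites, so they are not independent.

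Most zinc finger genes with HP1a sites had HP1b there in the knockdown. Of 262 C2H2 zinc finger genes on chromosome 19, whose products mostly silence transposable elements, 152 held HP1a sites, and HP1b was there in both knockdown libraries for 141 (92.8%) and in neither for 3. Their site bases were covered at 74.8% and 76.0% in wild type and at 57.3% and 66.2% in the knockdown, summed over the list. The median log2 difference of its 122 genes fitted within sites was -0.06, against -0.21 over all genes. Against HP1a, 53 of the 234 genes fitted were higher at an unadjusted p under 0.05 and 6 lower, with a median log2 difference of 0.67 against -0.33 over all genes. ZNF544, with 18.9 kb of site, went from 86.5% and 78.8% to 50.1% and 45.2%. ZNF91, a repressor of retrotransposons, went from 83.2% and 85.7% to 62.7% and 55.6%, while ZNF600 had 73.4% and 70.5% against 63.8% and 72.3%, overlapping. Elsewhere in the genome 111 of 291 such genes held sites, with HP1b in both knockdown libraries for 87 and in neither for 10. There the site bases were covered at 78.3% and 77.9% in wild type and at 72.5% and 76.6% in the knockdown. ZNF678, on chromosome 1, had 94.4% and 96.2% of its 57.8 kb of site covered in wild type against 94.9% and 90.8% in the knockdown. ZNF124 had 91.4% and 93.5% against 90.5% and 87.0%, and ZNF670 had 87.2% and 82.5% against 91.7% and 85.1%. These 3 genes lie on the distal long arm of chromosome 1. That arm held 21.3% of the sites no longer listed, 16.6% of those with HP1b in both knockdown libraries and 15.9% of all sites.

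Clustered protocadherin genes, which give neurons their surface identity, mostly had HP1b at their sites as well. Of 53 genes 40 held HP1a sites, HP1b was there in both knockdown libraries for 37, and the site bases were covered at 30.0% and 30.6% in wild type and at 22.4% and 47.0% in the knockdown. PCDHGA1, PCDHGA2 and PCDHGA3 share the same 13.1 kb of site, which went from 29.9% and 32.1% to 37.5% and 58.5%. Of the 391 olfactory receptor genes 18 held sites, with HP1b in both knockdown libraries for 7 and in neither for 2. Their site bases were covered at 39.7% and 41.99% in wild type and at 39.8% and 41.1% in the knockdown.

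Among genes of the epithelial state and of its loss, 30.0% of the adhesion genes and 35.0% of the mesenchymal genes held HP1a sites. Over all genes the share was 19.3%, and among keratin genes it was 7.27%. Of 20 epithelial and basal adhesion genes 6 held sites, with HP1b in both knockdown libraries for 4 (66.7%) and in neither for 2. Both wild-type libraries had it for 5. The site bases were covered at 53.7% and 70.6% in wild type against 24.6% and 29.3% in the knockdown. Much of this was PKP1. The sites of TP63, the gene of a basal cell transcription factor, were covered at 76.1% and 53.9% in wild type and at 51.2% and 98.9% in the knockdown. The 2 knockdown libraries lay far apart there. Of 55 keratin genes 4 held sites, and none had HP1b there in both knockdown libraries. Both wild-type libraries had it for only 1 of them. The site in KRT14, a basal keratin gene, went from 34.0% and 66.9% to 0% and 0%. Of 20 mesenchymal genes 7 held sites, and HP1b was in both knockdown libraries for 1 and in neither for 5. That 1 was COL5A2, a collagen gene, at 50.5% and 46.2% in wild type against 61.7% and 43.3% in the knockdown. Both wild-type libraries had HP1b for 2 of the 7 mesenchymal genes. The site bases of this list were covered at 32.2% and 30.6% in wild type against 32.9% and 24.2% in the knockdown, overlapping.

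Of 30 TGF-beta and BMP pathway genes 11 held sites, with HP1b in both knockdown libraries for 5 (45.5%) and in neither for 3. Both wild-type libraries had it for 5 as well. Their site bases were covered at 39.6% and 35.3% in wild type against 7.99% and 21.5% in the knockdown. TGFB2, which encodes a TGF-beta ligand, held 11.9 kb of them and went from 52.8% and 53.9% to 4.05% and 25.7%. The receptor genes BMPR1B, with 13.5% and 51.0% against 19.3% and 32.9%, and TGFBR3, with 15.7% and 0% against 8.67% and 7.69%, overlapped between the groups. Of 20 heterochromatin and lamina genes only LMNA and LMNB1, both lamin genes, held sites, and no HP1b library had a peak there. Of 16 cohesin, condensin and CTCF genes 5 held sites, with HP1b in both knockdown libraries for 2 and in neither for 2. Of 40 HOX genes only HOXB13 held a site, of 0.512 kb, with 0% in all HP1b libraries.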

How the data were processed

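ChIP-seq peak lists of 6 libraries were used, 2 each of HP1a in wild type, HP1b in HP1a knockdown and HP1b in wild type. Per the submitters' processing notes, the tools were Trimmomatic, Bowtie2, SAMtools and MACS3 on build hg38, while versions, settings and any input were not given in the sources used here. For each broad peak the authors deposited a score, which is its −log10 q multiplied by 10 and rounded down, a fold enrichment as a ratio, and −log10 p and −log10 q values. Every list ended near a −log10 q of 1, so weak peaks are included. Read counts are not in these lists, so depth is unknown and no interval or floor was set. A place without a listed peak is not a place shown to lack the protein.

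Peaks on chromosomes 1 to 22 were used, and overlapping peaks of a list were merged. Members, gene lists and tests were chosen with earlier results of these data known. Library values were compared by two-sided exact permutation. Bins of 1 Mb and gene bodies of RefSeq (GRCh38.p14) with 1 kb on each side were fitted with limma 3.58.1 (R 4.3.3, moderated t with variance trend) on the log2 scale, after adding the 10th percentile of the values above 0 to the relative coverage as a pseudocount. Features needed a value above 0 in 2 of 4 libraries. Benjamini-Hochberg adjustment was used with a threshold of 0.05. On simulated data for the bin comparison with 2737 bins, 99% of 2-fold and 100% of 4-fold changes were recovered. The simulated noise was normal with the same spread in every bin, unlike real libraries. These shares therefore check the fit and do not give its power in these data.

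Named bins and genes had the largest log2 difference in each direction past the threshold, or the largest moderated t where none passed: 4 bins and 6 genes. Named sites had the highest deposited HP1a fold in the weaker library, 4 for each of 4 outcomes, outside chromosome 8, besides the 3 widest. Named list members had the most site bases, up to 3 a list, of which 1 is not reported here. Named promoters had the most bases in HP1a sites, 2 for each outcome, with ties broken by HP1a fold. No genome sequence was used, and only the promoter windows have sequence here. Alternatives were lists of equal length, stricter thresholds, other overlaps, pseudocounts, filters, scalings and bin sizes, a replicate block and leaving out each library. Leaving out the distal arms, a crossed pairing and a fit without variance trend were added after seeing the data.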

Additional observations from a re-analysis of the deposited data

How the results depend on the processing

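With 2 libraries a group and no depth, only large differences can be told from the spread, and the list threshold decides the main share. HP1b met fewer HP1a sites in the knockdown in the lists as deposited (-12.4 percentage points), but the difference was 5.07 with −log10 q of at least 2 and 3.98 with −log10 p of at least 4, and for site bases 2.33 with the latter. The cause was not tested. Leaving out 1 library gave -17.6 to -6.73 points for sites met, -11.2 to -4.10 for site bases, -1.08 to -0.235 for the fold over the genome and -0.942 to -0.205 for the share of HP1b bases on sites.

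Newly listed sites numbered 17 with −log10 q of at least 2, 147 with −log10 p of at least 4, 188 where HP1a peaks had to overlap by 50% and 907 to 3431 with 1 library left out. Sites no longer listed numbered 5, 84 and 604 in these settings, 875 with lists of equal length, 1178 where HP1b had to cover 50% of the site, 1152 without the distal arms and 2672 to 6508 with 1 library left out.

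Bins with more and with less HP1b than HP1a numbered 6 and 0 at the −log10 q threshold of 2, 106 and 150 at the −log10 p threshold of 4, 1178 and 6 without scaling, 850 and 953 in bins of 250 kb, and 209 to 334 and 195 to 506 with 1 library left out. With lists of equal length 673 had less. Genes with more and less numbered 29 and 21 with the pseudocount multiplied by 4, and 89 to 283 and 224 to 636 with 1 library left out. Without scaling 56 genes had more, and 7 with 2 kb on each side.

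Within sites, the counts of 1 bin higher and 2 lower became 0 and 0 with lists of equal length, at −log10 q above 2, without filter, without scaling, without variance trend and in bins of 250 kb. Without the distal arms none was higher and 0 lower. They became 2 and 15 with the pseudocount multiplied by 4, and 0 to 100 and 0 to 191 with 1 library left out. Genes within sites numbered 1 higher and 1 lower with −log10 p of at least 4, and 0 to 3 and 0 to 2 with 1 library left out.

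Replicates of the same number are not stated to be paired, and their deviations correlated at -0.331 between wild-type HP1a and knockdown HP1b and at 0.309 between the HP1b groups over 2738 bins. With the replicate number as a block, 246 bins had more and 273 less HP1b than HP1a, 79 genes had more and 158 less, 12 site bins were higher and 65 lower, and 0 and 0 genes within sites. With the crossed pairing the counts were 380 and 537 bins and 224 and 558 genes. The bins on chromosome 1 from 156 to 157 Mb and chromosome 5 from 149 to 150 Mb changed sign with −log10 q of at least 2, to 0.71 and 0.18 (limma adjusted p = 0.759 and 0.958). Of 475 values of named bins and genes under alternatives, 348 kept their direction and side of the threshold, 28 no longer passed it and 97 newly passed it.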
